A study of Mus musculus with 8 samples.

Results

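The genes described here encode transcription factors of 2 families that are active in somatic cells, the RUNX factors with their partner CBFB and the C/EBP factors. They were chosen by symbol from a list of 8 genes, which were Runx1, Runx2, Runx3, Cbfb, Cebpa, Cebpb, Cebpd and Cebpg. Of these, 7 had a row among the 17922 rows of the expression table, 4 in the RUNX group and 3 in the C/EBP group. Cebpd was not analysed here. The series followed mouse embryonic fibroblasts (MEFs) on their way to induced pluripotent stem cells (iPSCs). All groups were of strain C57BL/6, and the fibroblasts came from fetuses at embryonic day 13.5 of a line that carries OCT4, SOX2, KLF4 and MYC under a tetracycline-controlled promoter (tetO-OSKM). There were 4 groups with 1 long RNA library each: uninduced MEFs, cells after 3 days and after 6 days of doxycycline at 2 µg/ml, and iPSCs. Induction took place in medium with 15% knockout serum replacement, LIF at 1000 U/ml and the GSK3 inhibitor CHIR99021 at 3 µM. The sources used here do not give the medium of the MEFs, the number of iPSC lines, the driver of the tetracycline transactivator or whether cultures were pooled. The question the stages address is how RNA levels differed along reprogramming.

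RUNX proteins bind DNA through the runt domain, and CBFB, which does not touch DNA itself, raises that affinity and protects the RUNX protein from degradation. RUNX1 is required for definitive blood formation, RUNX2 for bone formation, and RUNX3 acts in T cells, sensory neurons and epithelia. C/EBP proteins are basic leucine zipper (bZIP) factors that bind DNA as dimers with each other or with related bZIP proteins. C/EBP alpha, beta and delta drive fat and myeloid differentiation and acute-phase genes, while C/EBP gamma lacks a transactivation domain and works through its partners. Binding sites of both families are common at active enhancers of fibroblasts, and the genes are counted among somatic factors in work on reprogramming. One Cebpb transcript gives rise to activating and inhibitory protein forms, which RNA levels do not separate.

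Values are FPKM, fragments normalized for gene length and sequencing depth, so levels of different genes can be set side by side. Differences are on the scale log2(FPKM + 1), which understates those of weakly expressed genes. The rule of size called a gene higher or lower for a difference of 1 or more, 2-fold on this scale, provided that its higher value reached 1 FPKM. With 1 library per group there was no test and no error across libraries. The FPKM columns summed to between 438130 and 486609, and the steps between the lowest values gave relative depths of 0.637 for day 3, 1.04 for day 6 and 1.01 for iPSCs, with MEFs at 1. Markers fitted the labels. The summed level of 14 fibroblast markers was between 9336 and 9684 FPKM in the first 3 libraries and 204 in iPSCs. That of 9 pluripotency markers was 0.929, 3.68, 9.10 and 1926 FPKM from MEFs to iPSCs. Pou5f1, which encodes the induced factor OCT4, made 3.03 FPKM of the day 3 sum and 8.56 of the day 6 sum. No other of these markers reached 1 FPKM before iPSCs.

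The 3 DNA-binding RUNX genes stood at nearly the same level in MEFs and parted in iPSCs. Runx1 (ENSMUSG00000022952) had 4.60 FPKM in MEFs, 4.84 after 3 days, 4.29 after 6 days and 1.70 in iPSCs. Runx2 (ENSMUSG00000039153) was at 4.30, 5.55, 6.20 and 0.112 FPKM in the same order, and Runx3 (ENSMUSG00000070691) at 4.12, 4.63, 3.43 and 1.34 FPKM. Each of the 3 had its lowest value in iPSCs. Runx2 had its highest at day 6, Runx1 and Runx3 at day 3. In iPSCs the Runx2 level was 38.2-fold below MEFs and 55.1-fold below day 6 as a ratio of FPKM, while Runx1 and Runx3 were 2.71-fold and 3.07-fold below MEFs and stayed above 1 FPKM. As a position among all rows of a library, Runx2 was above 48.8% of rows in MEFs, 54.0% at day 6 and 18.2% in iPSCs. Runx1 was above 49.7% of rows in MEFs and 39.4% in iPSCs. In bulk RNA, fewer cells with a transcript and less of it per cell cannot be told apart.

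Some of these genes have a further row or overlap another gene. A further row with the symbol Runx2, whose identifier (ENSMUSG00000092206) is not in the table of gene names used here, was at 0.476, 0.0814, 0.203 and 0.0329 FPKM over the 4 libraries. In the RefSeq annotation Runx2 overlaps Supt3, which encodes a subunit of the SAGA acetyltransferase complex, and a noncoding gene, Runx2os3. Supt3, listed under the symbol Supt3h, had 3.29, 4.48, 4.07 and 3.64 FPKM in stage order, so its iPSC value lay inside the range of its other 3 values. The sources used here do not give the strand setting of the counting, and reads shared by overlapping genes cannot be assigned from these values. Noncoding genes also overlap Runx1 (Gm30281) and Cbfb (AI225912), and Gm45095 overlaps Cebpg.

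**Figure D1:**
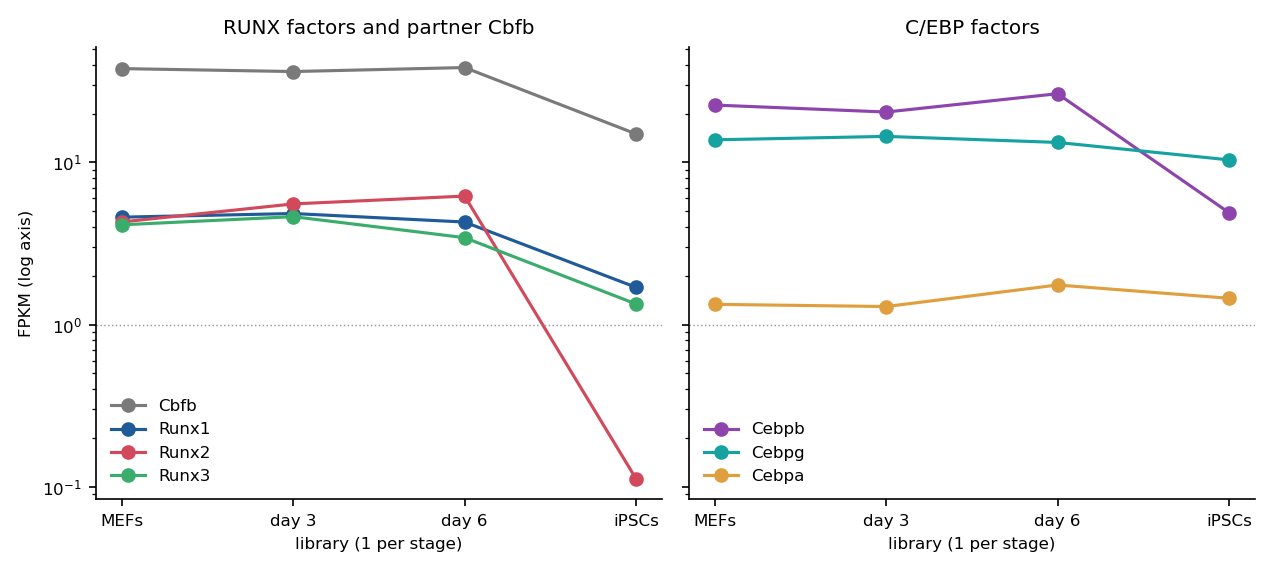
FPKM on a log axis for the RUNX genes with Cbfb (left) and the C/EBP genes (right) in the 4 libraries, 1 point per library, with a dotted line at 1 FPKM. Runx2 ran from 4.30 in MEFs to 6.20 at day 6 and 0.112 in iPSCs, while Runx1 and Runx3 stayed above 1 FPKM in iPSCs and Cebpa stayed between 1.29 and 1.75 throughout.

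The start regions of the 3 RUNX genes are shown because they share a stretch of letters. The levels of these genes were close in MEFs and parted in iPSCs, and a link to the stretch was not tested. The sequences are from RefSeq (mouse build GRCm38.p6), which held windows of 300 bases, 250 before and 50 after each annotated start, for 7 of the 8 listed genes. The authors' processing names build mm9, so these coordinates place no value of the table. The longest run common to the first windows of Runx1, Runx2 and Runx3 had 18 bases and holds 2 copies of the RUNX motif ACCACA. It is printed below in capitals with its flanks, 5′ to 3′ on the strand of the gene.
Runx1, chr16:92826025-92826054, minus strand: cataaaCAACCACAGAACCACAAGttgggt
Runx2, chr17:44814583-44814612, minus strand: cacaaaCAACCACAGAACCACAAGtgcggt
Runx3, chr4:135120503-135120532, plus strand: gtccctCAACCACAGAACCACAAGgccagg
Counting the annotated start as base 1, the run begins at base 27 of Runx1, base 22 of Runx2 and base -136 of Runx3. Of 32851 windows of all genes 4 held it on either strand, those of the 3 RUNX genes and that of Gm16225, a noncoding gene next to the start of Runx3. The motif ACCACA alone (or its reverse complement TGTGGT) was in 16.8% of all windows. RefSeq gives Runx1 and Runx3 a further window at a second start, and neither held the motif. The table has 1 row per gene for Runx1 and Runx3 and does not say which start was in use.

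Runx2 carried 1 more ACCACA in its upstream part, at base -80. Its 250 bases before the start are printed because Runx2 had the largest difference between day 6 and iPSCs of the members. Capitals mark the motif.
Runx2, chr17:44814628-44814877, minus strand: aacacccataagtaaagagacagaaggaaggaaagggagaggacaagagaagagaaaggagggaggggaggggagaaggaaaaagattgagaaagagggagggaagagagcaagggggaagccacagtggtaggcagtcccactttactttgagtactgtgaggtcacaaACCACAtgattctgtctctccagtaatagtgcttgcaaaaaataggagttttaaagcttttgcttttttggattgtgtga
This window was 45.3% G and C, close to the first window of Runx1 (45.0%). The first window of Runx3 was at 63.7%, and the median of all windows was 52.7%. A match of letters is a description and not evidence of binding.

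Cbfb (ENSMUSG00000031885), the common partner, was the most strongly expressed of the 7 genes in every library. It had 37.9, 36.3 and 38.4 FPKM up to day 6 and 15.0 in iPSCs. The first 3 libraries lay within 1.06-fold of each other and iPSCs stood 2.53-fold below MEFs. Set against the summed FPKM of Runx1, Runx2 and Runx3, Cbfb was 2.91, 2.42, 2.76 and 4.76 times the sum in stage order. The RUNX sum itself was 13.0, 15.0, 13.9 and 3.15 FPKM. The higher ratio in iPSCs went with the low Runx2 level, since the iPSC level of Cbfb was 2.56-fold below day 6 and those of Runx1 and Runx3 were 2.52-fold and 2.56-fold below it.

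Of the C/EBP genes, Cebpb was lower by the rule in iPSCs than in MEFs and than at day 6, and the others were not. Cebpb (ENSMUSG00000056501), a factor of inflammation and of early fat cell differentiation, had 22.6 FPKM in MEFs, 20.4 after 3 days, 26.5 after 6 days and 4.90 in iPSCs. Its iPSC level was 4.60-fold below MEFs and 5.40-fold below day 6. Cebpg (ENSMUSG00000056216) was at 13.8, 14.5, 13.3 and 10.4 FPKM, a range with its lowest value also in iPSCs but within the rule. Cebpa (ENSMUSG00000034957), the factor of mature fat, liver and granulocytes, was at 1.33, 1.29, 1.75 and 1.45 FPKM. It was the lowest of the 7 genes in the first 3 libraries, and in iPSCs it lay above Runx3 and Runx2. Set against the name somatic factor, Cebpb, Runx2 and Cbfb were lower in iPSCs than in MEFs and at day 6, Runx1 and Runx3 were lower by the rule against MEFs alone, and Cebpa and Cebpg were within the rule in both comparisons. Cebpe, the granulocyte member of the family, was listed at 0 in MEFs and at day 3 and did not exceed 0.200 FPKM. Cebpz, which carries the family name but is a CCAAT-binding protein of another kind, had 13.3, 14.0, 16.2 and 35.0 FPKM and was higher in iPSCs than in MEFs (1.33).

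The upstream parts of Cebpb and Cebpa are shown for contrast, since Cebpb was past the rule in iPSCs and Cebpa within it. Capitals mark the core of the cAMP response element, TGACG (or CGTCA on the other strand), which CREB and ATF factors bind, and the TATA box, TATAAA.
Cebpb, chr2:167688665-167688914, plus strand: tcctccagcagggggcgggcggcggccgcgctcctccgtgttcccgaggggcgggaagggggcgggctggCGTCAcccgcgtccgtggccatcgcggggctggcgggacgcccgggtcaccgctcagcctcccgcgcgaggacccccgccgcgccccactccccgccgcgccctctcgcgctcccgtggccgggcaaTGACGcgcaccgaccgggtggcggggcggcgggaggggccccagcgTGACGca
Cebpa, chr7:35119043-35119292, plus strand: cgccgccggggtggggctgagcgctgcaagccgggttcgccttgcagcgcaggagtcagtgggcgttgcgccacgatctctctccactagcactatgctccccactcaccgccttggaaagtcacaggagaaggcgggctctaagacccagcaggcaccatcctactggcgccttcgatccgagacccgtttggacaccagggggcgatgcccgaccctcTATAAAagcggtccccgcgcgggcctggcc
Cebpb held 3 copies of this core, beginning at bases -180 (on the other strand), -53 and -7, and Cebpa none. The windows of Cbfb, Cebpg, Runx1, Runx2 and Runx3 held none either. Of these genes, all but Cebpg were lower in iPSCs than in MEFs by the rule. A link between the core and the levels was not tested. The core was in 20.8% of all windows and TATAAA in 13.6%. Cebpa had TATAAA at base -30, and Cebpb had it at base 22, past the annotated start. The C/EBP motif TTGCGNAA (or TTNCGCAA) was in 0.798% of all windows and in none of the members' windows, and CCAAT (or ATTGG), in 37.4% of all windows, was in those of Runx1, Runx3 and Cebpg.

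Up to day 6 no member was past the rule, and the differences of the members lay between -0.34 and 0.44. At day 3 against MEFs 0 of 7 met the rule, where 0.170% of 11740 rows were higher and 0.0511% lower, 0.221% in all. At day 6 against day 3 it was 0 of 7, where 0.457% of 11817 rows were higher and 0.398% lower, 0.855% in all. At day 6 against MEFs it was 0 of 7, where 0.770% of 11816 rows were higher and 0.584% lower, 1.35% in all. These shares are so small that 0 of 7 is no result about the members. The median member differed from MEFs by 0.06 at day 3 and by 0.02 at day 6, beside -0.02 for all rows in both comparisons. The largest difference from MEFs at day 6 was that of Runx2 (0.44), which 95.6% of rows lay below. Cebpa differed by 0.24, Cebpb by 0.22 and Runx3 by -0.21. Over the first 3 libraries the median log2 range of 11884 rows was 0.22. The range was smaller for Cbfb (0.08), Cebpg (0.12) and Runx1 (0.14), and larger for Cebpa (0.27), Runx3 (0.34), Cebpb (0.36) and Runx2 (0.44).

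Between day 3 and day 6 the largest member differences were those of Cebpb and Runx3. Cebpb was at 20.4 and 26.5 FPKM (0.36), above 94.6% of rows in that comparison, and Runx3 at 4.63 and 3.43 FPKM (-0.34), above 8.43% of rows. Both were within the rule. The comparisons share libraries and are given side by side for that reason.

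In iPSCs against MEFs, 5 of 7 members were lower and none higher. Over all 12937 rows compared, 25.0% were lower and 21.1% higher, 46.0% in all. Which direction had more calls depended on the scaling, with 3232 lower and 2724 higher rows as deposited, 2826 and 3226 at the same upper quartile, and 3303 and 3692 at the same sum. The lower members were Runx2 (-2.25), Cebpb (-2.00), Cbfb (-1.28), Runx3 (-1.13) and Runx1 (-1.05), and the others were Cebpg (-0.38) and Cebpa (0.07). The median over the 7 was -1.13, beside -0.05 over all rows. Runx1 and Runx3 lay just past the rule. After rescaling to the same upper quartile, which put the median of all rows at 0.13, Runx1 was within it (-0.92) and Runx3 at -1.01. With a pseudocount of 5, Runx1 (-0.52), Runx2 (-0.86) and Runx3 (-0.52) were all within it.

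Against day 6 the calls were fewer and all 7 differences were negative. Runx2 (-2.69), Cebpb (-2.22) and Cbfb (-1.30) were lower by the rule, 3 of 7 where 23.4% of 12951 rows were lower and 20.4% higher, 43.8% in all. Runx1 (-0.97) and Runx3 (-0.92) fell short of it, though a pseudocount of 0.1 put both past it, at -1.29 in each case. Runx2 lay below all but 5.18% of the rows compared and Cebpb below all but 7.90%. Cebpg (-0.33) and Cebpa (-0.17) were within the bulk of the rows.

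**Figure D2:**
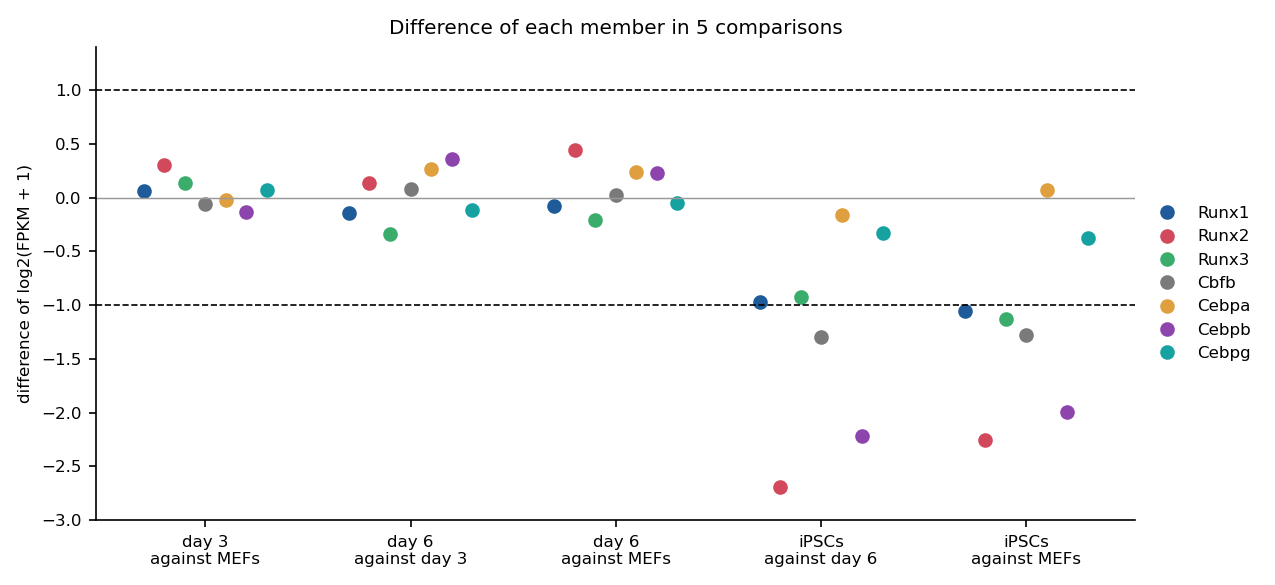
Difference of log2(FPKM + 1) for each of the 7 members (coloured points) in 5 comparisons, first-named library minus second, with dashed lines at the rule of size. All points of the first 3 comparisons lie between -0.34 and 0.44, and in iPSCs against MEFs 5 points lie below -1.

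**Figure D3:**
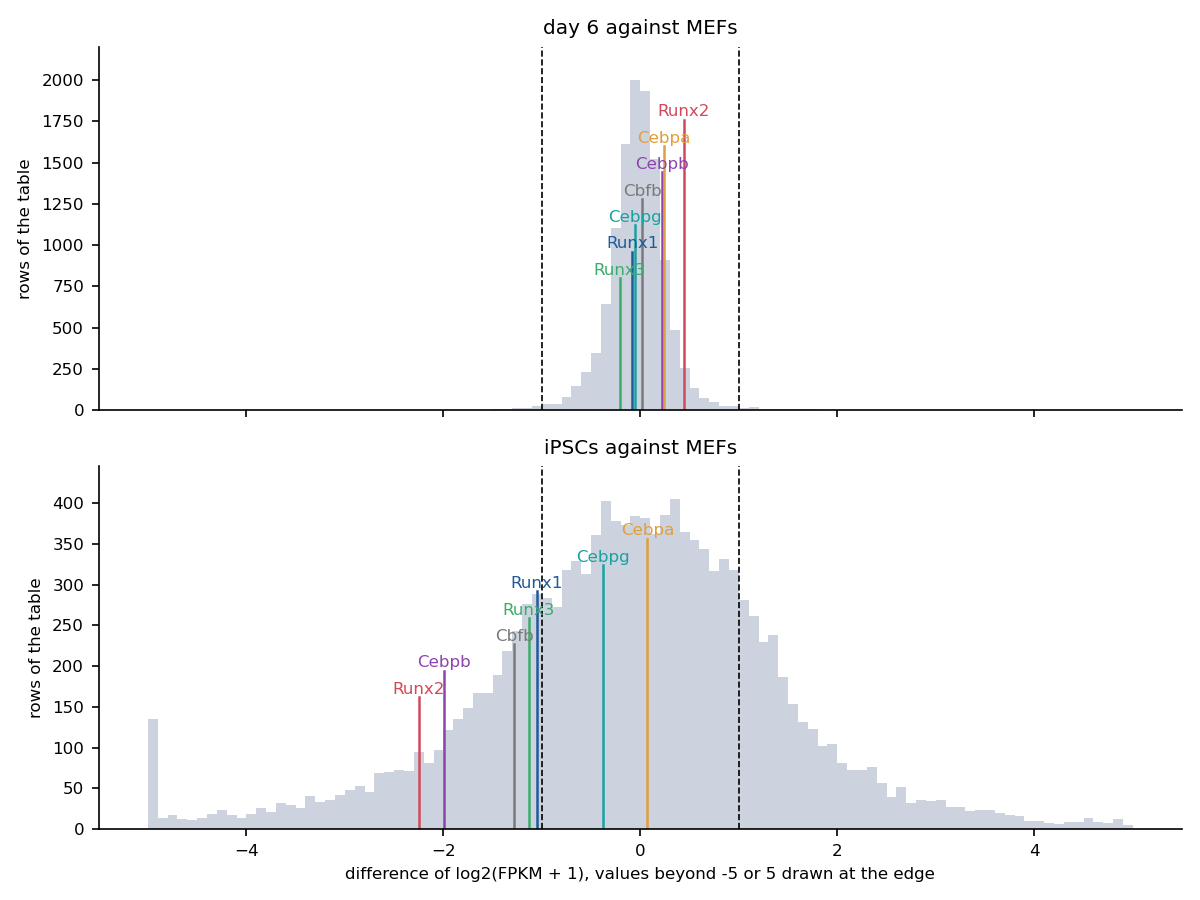
Number of rows of the table (grey bars) by difference of log2(FPKM + 1), for day 6 against MEFs (top) and iPSCs against MEFs (bottom), with a coloured line at each member and dashed lines at the rule of size. The heights of the coloured lines only separate the names. At day 6 Runx2 (0.44) lies just past the 95th percentile of all rows (0.42), and in iPSCs Runx2 (-2.25) and Cebpb (-2.00) lie above the 5th percentile (-2.86).

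The make-up of each family by RNA level differed in iPSCs. In MEFs the RUNX sum was 35.3% Runx1, 33.0% Runx2 and 31.7% Runx3. At day 3 the shares were 32.2%, 36.9% and 30.8%, and at day 6 they were 30.8%, 44.5% and 24.7%. In iPSCs they were 53.9% Runx1, 3.57% Runx2 and 42.5% Runx3. Runx2 therefore had the largest share at day 6 and the smallest in iPSCs. Of the C/EBP sum over the 3 measured genes, which was 37.7, 36.2, 41.5 and 16.7 FPKM over the stages, Cebpb made up 59.9%, 56.5%, 63.8% and 29.3%. Cebpg made up 36.6%, 40.0%, 32.0% and 62.0%, so the family member without a transactivation domain held the larger part of this sum in iPSCs. Of the sum without Cebpb, Cebpg made 91.2% in MEFs and 87.7% in iPSCs. Cebpa held 3.54% in MEFs and 8.69% in iPSCs. Cebpd is not in these sums.

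**Figure D4:**
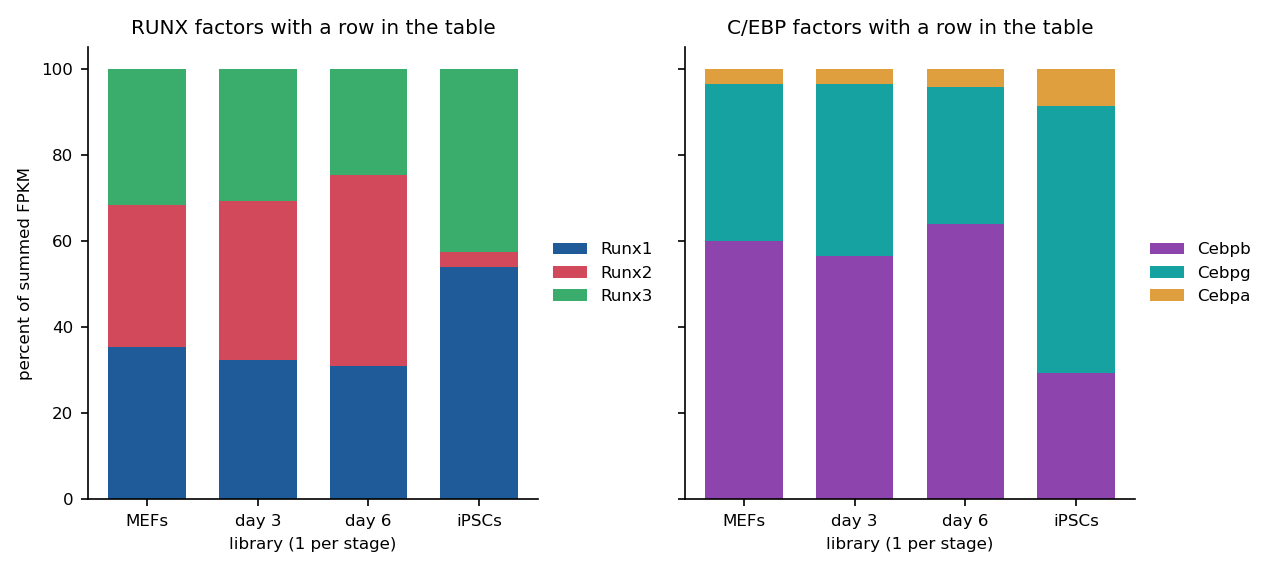
Percent of the summed FPKM of Runx1, Runx2 and Runx3 (left) and of Cebpb, Cebpg and Cebpa (right) in each of the 4 libraries, 1 bar per library. The Runx2 part was 44.5% at day 6 and 3.57% in iPSCs, and the Cebpb part 63.8% and 29.3%.

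Genes listed here as cofactors of RUNX proteins differed in both directions in iPSCs. Of 17 listed, 16 were compared with MEFs and 4 were higher and 7 lower, with a median of -0.90, while 21.1% of all rows were higher and 25.0% lower. The number higher was near that share. Runx1t1, the corepressor ETO, was at 13.2, 12.9, 13.4 and 0.286 FPKM over the stages. Ets1, which binds DNA together with RUNX1, was at 13.1, 14.1, 12.1 and 2.90 FPKM, and the TGF-beta effector Smad3 at 32.2, 26.2, 32.8 and 9.21 FPKM. These 3 had their low value in iPSCs. The Groucho corepressor gene Tle4 was instead at 2.59, 2.49, 1.94 and 16.5 FPKM, the corepressor scaffold Sin3a at 16.8, 16.1, 21.1 and 61.0, and Cbfa2t2, a relative of Runx1t1, at 13.2, 19.0, 19.4 and 45.5. Before iPSCs none of the 16 was past the rule.

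Genes of the bone programme that RUNX2 controls were present in MEFs only in part. Of 15 listed genes with a row, 7 reached 1 FPKM in MEFs or iPSCs. Among these 7, 4 were lower in iPSCs and 1 was higher (median -5.43), beside 25.0% and 21.1% of all rows. Osteoprotegerin, encoded by Tnfrsf11b, had 266, 215, 130 and 0.0780 FPKM in stage order. Its day 6 value was past the rule against MEFs (-1.03), the only one of 7 compared there, where 0.584% of all rows were lower. Osteopontin (Spp1) was at 7598, 6325, 4008 and 161 FPKM and the hypertrophic cartilage collagen gene Col10a1 at 50.0, 40.1, 26.2 and 0.179, both with lower values at each later stage. The type I collagen gene Col1a1 went the other way before iPSCs, at 939, 1257, 1453 and 7.47 FPKM. Alpl, an alkaline phosphatase of bone that pluripotent cells also express, had 0.0876 FPKM in MEFs and 62.6 in iPSCs. Defining markers of osteoblasts and osteocytes were near 0. Of 6 measured, none reached 1 FPKM in any library and their sum lay between 0.111 and 0.619 FPKM.

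Markers of cartilage, in which Runx2 is also active, were at lower values at day 6 and in iPSCs. The 7 markers summed to 829, 1036, 553 and 3.77 FPKM in stage order. Runx2 was highest at day 6, where these markers stood below their MEF and day 3 levels. All 6 markers that were compared were lower in iPSCs than in MEFs, beside 25.0% of all rows. Among these markers were Col2a1 at 740 and 1.79 FPKM, and Col9a1, listed at 0 in iPSCs. Their part in the Runx2 levels was not tested.

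Genes that RUNX1 controls in blood cells were mostly weak. Of 11 measured, 6 reached 1 FPKM in MEFs or iPSCs, 1 was higher in iPSCs and 2 were lower (median -0.32), near the 21.1% and 25.0% of all rows. Csf1r, a growth factor receptor of macrophages, was at 2.90, 2.31, 2.17 and 0.793 FPKM and the surface gene Cd34 at 4.57, 6.31, 5.32 and 0.839. Kit, a receptor of blood progenitors and germ cells, had 0.0595 FPKM in MEFs and 21.6 in iPSCs.

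Macrophages express Runx1, Runx3, Cebpa and Cebpb, and their markers other than Lyz2 were at low levels up to day 6. Of 14 macrophage and leukocyte markers, the numbers at 1 FPKM or more were 10, 9, 10 and 3 in stage order. Their sum was 92.4, 67.4, 74.8 and 53.6 FPKM, of which the lysozyme gene Lyz2 made 52.9 in MEFs and Laptm5 38.5 in iPSCs. Emr1, a surface marker of macrophages, had 2.37 FPKM in MEFs and the signalling adaptor Tyrobp 7.88. Both were listed at 0 in iPSCs, as was Ptprc (CD45), which did not exceed 0.703 FPKM in any library. Compared with MEFs, 7 of 10 of these markers were lower in iPSCs and 1 was higher, beside 25.0% and 21.1% of all rows. Runx1, Runx3 and Cebpb were lower there too, while Cebpa was within the rule (0.07). The part of macrophages in the levels of these genes was not tested. Of 5 endothelial markers, none reached 1 FPKM in MEFs, and in iPSCs Pecam1 made 26.2 of a sum of 29.0 FPKM. Tek was at 0.262, 1.22, 2.06 and 2.45 FPKM in stage order, the only 1 to reach 1 FPKM at day 3 and day 6. It was higher by the rule at day 6 than in MEFs (1.28), where 0.770% of all rows were higher.

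The bZIP genes whose proteins pair with C/EBP factors were lower in iPSCs or within the rule. Of 14 compared with MEFs, 7 were lower and none higher, with a median of -1.14, beside 25.0% and 21.1% of all rows. Atf5 was at 59.4, 51.6, 52.9 and 3.43 FPKM over the stages. Among AP-1 genes, Junb was at 139, 124, 102 and 9.14, Fos at 122, 130, 72.5 and 10.5, and Jun at 35.8, 32.9, 35.1 and 6.89 FPKM. Fosl1 was at 7.48, 11.0, 14.9 and 0.0651 FPKM. Like Runx2 and Cebpb, it had its highest value at day 6 and its lowest in iPSCs. The same order held for Cbfb, but its first 3 libraries lay within 1.06-fold of each other. Dbp, a circadian bZIP gene, had 10.2 FPKM in MEFs and 2.94 in iPSCs. The stress partner Ddit3 (CHOP) was at 42.4, 39.3, 37.3 and 41.0 FPKM, close to level.

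Genes that act on C/EBP levels or activity included several cytokine receptors. Of 13 compared between iPSCs and MEFs, 8 were lower and 2 higher (median -1.29), beside 25.0% and 21.1% of all rows. Il6st, the signalling receptor gp130 for IL-6 and LIF, was at 191, 185, 224 and 11.9 FPKM, and Il1r1 at 9.15, 11.0, 10.5 and 0.326. Tnfrsf1a had 61.8, 63.3 and 79.5 FPKM up to day 6 and was lower in iPSCs than in MEFs (-2.65). These receptors lie upstream of Cebpb and Cebpd in inflammation. Trib1, a pseudokinase that promotes degradation of C/EBP alpha, was at 13.3, 14.4, 11.5 and 1.15 FPKM and its relative Trib2 at 7.52, 7.89, 8.68 and 2.35. Rps6ka1, which encodes the kinase RSK1, was at 2.13, 1.68, 2.48 and 43.7 FPKM, with the high value in iPSCs.

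Inflammatory and acute-phase targets of C/EBP factors had more calls at day 6 than the other lists of targets, partners and regulators. Of 11 compared at day 6 against MEFs, 4 were higher and none lower, with a median of 0.48, while 1.35% of all rows were past the rule. Lcn2, an iron-sequestering lipocalin, had 2.66, 3.33 and 17.5 FPKM up to day 6 and was listed at 0 in iPSCs, and the chemokine gene Cxcl1 had 2.88, 3.89, 7.65 and 0.181 FPKM. The others were Il6 (1.77 FPKM in MEFs and 5.18 at day 6) and Cxcl5 (1.15 and 4.84), named after their values were seen. Il1rn, an antagonist of IL-1, was at 77.4, 71.2, 125 and 0.0429 FPKM and within the rule at day 6. Ptgs2, the cyclooxygenase COX-2, went the other way, at 331, 331, 251 and 1.79 FPKM, also within it. Cebpb itself was 0.22 above MEFs at day 6. None of 11 macrophage markers was past the rule there, and 2 of 3 keratinocyte markers compared were higher, with a sum over 5 markers of 0.912 FPKM in MEFs and 7.17 at day 6. The only endothelial marker compared, Tek, was higher as well. The part of such cells in these values was not tested. In iPSCs 10 of 13 list members were lower than in MEFs and 2 were higher (median -1.54), beside 25.0% and 21.1% of all rows. The chemokine gene Ccl2 had 15.2 FPKM in MEFs and 0.285 in iPSCs. Lyz2 is in this list and in the macrophage list.

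Fat cell genes were called about as often as all rows. Pparg, the nuclear receptor that C/EBP factors induce in fat cell differentiation, was at 10.7, 11.1, 13.2 and 0.134 FPKM, and Fabp4, a fatty acid-binding protein, at 59.2, 53.0, 48.6 and 0.0416. Both were lower in iPSCs than in MEFs, 2 of 7 list members compared, and Slc2a4 was higher, at 0.0913 and 3.31 FPKM (median of the 7 -0.11). Of all rows, 25.0% were lower and 21.1% higher. Klf15 was at 3.71, 3.17, 1.14 and 3.29 FPKM and was the only list member past the rule between day 6 and MEFs (-1.14), with 5 of the 6 compared below 0. In MEFs the markers of mature fat cells summed to 59.4 FPKM, nearly all of it Fabp4. Adipoq and Plin1 did not exceed 0.0354 FPKM in any library.

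Of 12 stress genes on which ATF4 and C/EBP gamma act, 4 were lower in iPSCs than in MEFs and none higher (median -0.42), beside 25.0% and 21.1% of all rows. The number lower was near the share of all rows. Before iPSCs none was past the rule. The lower ones were Herpud1 with 73.2 and 17.2 FPKM, Slc7a11, a cystine transporter, with 5.66 and 0.628, Chac1 with 20.7 and 5.69, and Ppp1r15a with 88.2 and 32.1.

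**Figure D5:**
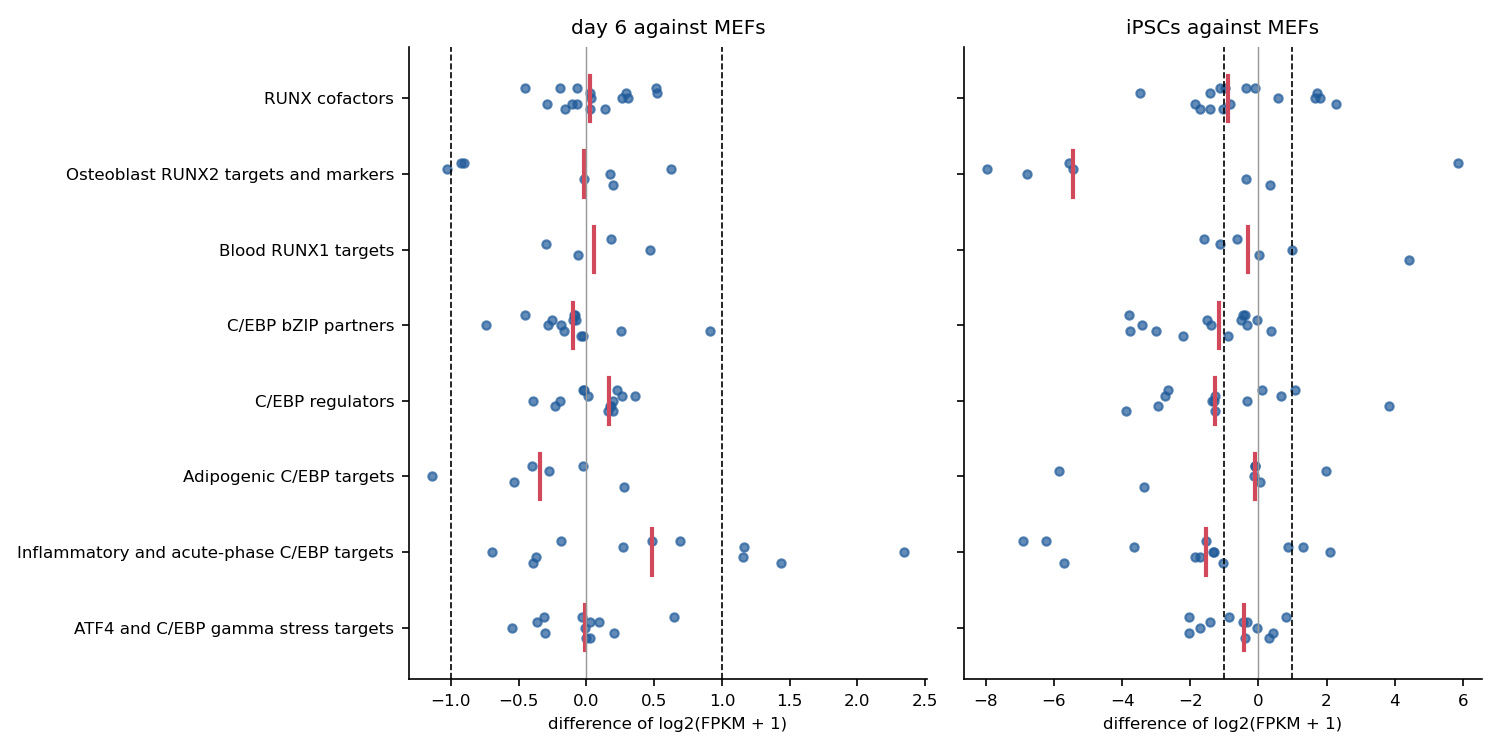
Difference of log2(FPKM + 1) for members of 8 gene lists (blue points, 1 per gene compared; red bars, list medians) at day 6 against MEFs (left) and in iPSCs against MEFs (right), with dashed lines at the rule of size and different axis ranges. At day 6 the inflammatory list holds 4 points above 1, and in iPSCs its median is -1.54.

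The patterns of the members were set against each other by the distance between profiles of log2(FPKM + 1), each centred on its own mean over the 4 libraries. The closest pair was Runx1 and Runx3 (0.15), followed by Runx1 and Cbfb (0.25). Runx2 was closest to Cebpb (0.52), nearer than to Runx3 (1.30) or Runx1 (1.31). The pseudocount shrinks the difference of Runx2, whose iPSC level was 0.112 FPKM, so its distances depend on this scale. As a ratio of FPKM, iPSCs stood 55.1-fold below day 6 for Runx2 and 5.40-fold for Cebpb. Cebpa was closest to Cebpg (0.44). With 4 points per profile, 1 of them far from the rest, many genes lie close to a member by this measure.

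Among 12905 other genes that reached 1 FPKM, the 3 nearest to each member were named in the same way. Nearest to Runx2 were Flnc, which encodes the muscle filamin (44.3, 51.6, 58.5 and 8.13 FPKM), the calcium channel gene Itpr2 and the chromatin protein gene Hmga2 (21.5, 28.4, 30.1 and 3.47 FPKM), and only 2 genes lay within a distance of 0.1. Nearest to Cebpb were Prr13 (89.5, 81.2, 104 and 22.3 FPKM), Tshz1 and 6720456H20Rik, with 5 genes within 0.1. The other patterns were more common. Within 0.1 there were 20 genes for Runx3 (nearest Mthfsd, Lass6 and Spire1), 43 for Cebpa (Polr2l, Mad1l1 and Cbr4) and 70 for Cbfb (Mark1, Igf2r and Polm). For Runx1 there were 88 (1300010F03Rik, Ang and Fzd3), and for Cebpg 133 (Hps3, Cdc14b and Stim1).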

How the data were processed

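Long RNA of MEFs, of cells at day 3 and day 6 and of iPSCs was sequenced after removal of ribosomal RNA, per the labels' protocols, with 1 library per group. The authors deposited 1 FPKM value per gene and library, per the file headers. Per the submitters' processing notes, HISAT2, Cufflinks and build mm9 were used. The sources used here do not give versions, gene models, strand setting, filters or scaling between libraries. The 4 small RNA samples were not analysed here.

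Members, lists and comparisons were chosen with earlier results of these data known. Differences are of log2(FPKM + 1), with a pseudocount of 1, and the rule (a difference of at least 1 and a higher value of at least 1 FPKM) was applied to every row. A symbol on several rows was taken from its highest row. Up to 6 genes past the rule were named per list, by largest difference, and the 3 genes of most similar profile per member. Other non-member genes were named after their values were seen. Relative depth is the most frequent ratio among rows under 0.06 FPKM in both libraries. Python 3.11.15, pandas 2.3.3 and numpy 2.4.6 were used. Alternatives were other pseudocounts, filters, thresholds and scalings.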

Additional observations from a re-analysis of the deposited data

How the results depend on the processing

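No paired analysis was possible because every group holds a single library, so none could be left out either. No member was past the rule in the 3 comparisons without iPSCs under any alternative run. There a pseudocount of 5, a minimum of 5 FPKM and a difference of at least 2 could add no call. Dropping the filter on low values could add none either, since all 7 members were already compared. Against day 6, the 3 lower members became 5 (with Runx1 and Runx3) with a pseudocount of 0.1 and after rescaling to the same sum, which enlarges the values relative to the pseudocount. Against MEFs, the 5 lower members became 2 (Cbfb and Cebpb) with a pseudocount of 5 and with a minimum of 5 FPKM, and 1 (Runx2) with a difference of at least 2. Of 285 member differences under alternatives, 12 lost a call, 4 gained one and no called difference changed sign. Summing both Runx2 rows, an alternative chosen after seeing the data, changed no call. Rescaling to the same upper quartile moved the median of all rows in iPSCs against MEFs from -0.05 to 0.13. For day 6 against MEFs, calls over all rows were 91 higher and 69 lower as deposited and 190 and 85 after rescaling to the same sum.

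Without the family member highest in MEFs (Runx1 or Cebpb), Runx2 made 51.0% and Runx3 49.0% of the RUNX sum in MEFs, and 7.74% and 92.3% in iPSCs. Cbfb was then 4.50 times the sum in MEFs and 10.3 times in iPSCs. Cebpa made 8.82%, 8.20%, 11.7% and 12.3% and Cebpg 91.2%, 91.8%, 88.3% and 87.7% of the C/EBP sum in stage order, so the Cebpg share was then not higher in iPSCs than in MEFs. These shifts follow from the smaller sums. Low values were least precise at day 3, and the FPKM table gives no counts, so no interval was computed.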
